A study of Mus musculus with 10 samples.

Results

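The NF-κB family was followed in fetal liver stem cells through 10 genes, chosen by name from the 17404 genes of the deposited table. They were the subunit genes Nfkb1, Nfkb2, Rel, Rela and Relb and the genes grouped here as inhibitors, Nfkbia, Nfkbib, Nfkbie, Nfkbiz and Tnfaip3. The grouping is by name and not a measure of inhibition. All 10 were among the 16725 genes with enough counts to be tested. RNA had been sequenced from long-term hematopoietic stem cells (LT-HSCs) sorted from mouse fetal livers at E14.5, with 6 KO and 4 WT libraries. KO embryos (Tnfrsf11aCre; Spi1f/f) carried Cre recombinase at the locus of Tnfrsf11a, a gene that macrophage precursors express, together with floxed alleles of Spi1, which encodes the macrophage factor PU.1. WT littermates (Tnfrsf11a+/+; Spi1f/f) had the same floxed alleles and no Cre, and all embryos were on a C57BL/6 background. The comparison therefore asked whether RNA in LT-HSCs differed when macrophages had been depleted around them, with Cre placed in macrophage precursors and not by design in the stem cells.

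NF-κB proteins are dimers of Rel family subunits that bind short κB elements in DNA. In resting cells inhibitor proteins of the IκB type hold them in the cytoplasm, and receptors for TNF, interleukin-1 and microbial products release them through the IKK kinase, which marks IκB for degradation. Several inhibitors are themselves targets of the subunits and so form a negative feedback loop, and blood stem cells are known to use the pathway in their response to inflammatory signals. Activity is set largely by where the proteins are in the cell, which the amount of RNA does not measure.

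Matches to the kappaB consensus lay upstream of several members. Windows of 250 bases upstream of annotated transcription starts were found in RefSeq (GRCm38.p6) for 7 of the 10 members, and those of Nfkb1, Relb and Nfkbiz were not used here. A match to the kappaB consensus on either strand, with overlapping matches counted separately, lay in windows of 5 of the 7, namely Rel, Nfkb2, Nfkbia, Nfkbie and Tnfaip3. Of all 32851 windows of the same length, 7.25% held a match, as did 10.4% of the 12888 genes tested with at least 1 window. Shown are 3 windows free of annotated exons (1 exonic base of Rel was trimmed), each in the sense of its gene with the matches in capitals, because they belong to the most abundant inhibitor, to another IκB gene and to the least abundant subunit. The window of Nfkbia (chr12:55492648-55492897, minus strand) has 1 match that begins 29 bases upstream of the start. The window of Nfkbie (chr17:45555450-45555699, plus strand) has 1 match that begins 106 bases upstream. That of Rel (chr11:23770971-23771219, minus strand) has a pair of overlapping matches that begin 92 and 91 bases upstream.
Nfkbia: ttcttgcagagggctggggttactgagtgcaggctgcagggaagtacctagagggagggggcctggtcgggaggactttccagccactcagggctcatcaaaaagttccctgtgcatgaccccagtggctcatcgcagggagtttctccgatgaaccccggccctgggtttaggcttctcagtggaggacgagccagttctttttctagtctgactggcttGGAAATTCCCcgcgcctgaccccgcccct
Nfkbie: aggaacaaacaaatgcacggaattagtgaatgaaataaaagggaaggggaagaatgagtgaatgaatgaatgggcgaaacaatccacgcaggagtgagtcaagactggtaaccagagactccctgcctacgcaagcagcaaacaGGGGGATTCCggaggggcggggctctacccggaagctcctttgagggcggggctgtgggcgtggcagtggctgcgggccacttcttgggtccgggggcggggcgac
Rel: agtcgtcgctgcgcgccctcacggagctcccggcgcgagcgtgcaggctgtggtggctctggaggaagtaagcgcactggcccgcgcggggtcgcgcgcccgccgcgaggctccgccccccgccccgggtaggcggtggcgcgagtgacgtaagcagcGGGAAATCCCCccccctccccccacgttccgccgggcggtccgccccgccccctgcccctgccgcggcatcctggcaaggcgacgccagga
A match describes letters and not a site in use. Among genes tested with a window, 24 of the 1339 with a match were higher in KO (1.79%) and 36 lower (2.69%), beside 152 (1.32%) and 324 (2.81%) of the 11549 without.

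Counts on genes ran from 5315435 to 30941726 in KO and from 7633446 to 18256010 in WT libraries, and reads carried no molecular identifiers, so that depth speaks of counting error only. Levels between groups are given as CPM, counts scaled to library size after TMM normalization. Spi1 was at a mean of 60.6 CPM with SD 31.1 over the 6 KO and 24.4 CPM with SD 21.3 over the 4 WT libraries, with a log2 fold change of 1.31 (adjusted p = 0.337, edgeR with Benjamini-Hochberg adjustment). Tnfrsf11a, the locus of Cre, is itself among the receptor genes upstream of NF-κB listed below. It was at 2.56 CPM with SD 1.155 in KO and 2.16 CPM with SD 2.44 in WT. Its log2 fold change was 0.26 (adjusted p = 0.886, edgeR), on 22 to 73 counts in KO and 9 to 41 in WT libraries. All 16 listed LT-HSC markers were measured, led by Cd34 and Kit, and their sum spanned 852 to 2149 CPM across KO and 775 to 1106 CPM across WT libraries. Of them 4 rose (Cd34, Hoxa9, Mecom and Hlf) at an adjusted p below 0.1 by edgeR, where 1.32% of all genes did. Estimates were above 0 for 13 of the 16, beside 53.1% of all genes, and below 0 for Tal1 (-0.90), Gfi1b (-1.36) and Ly6a (-0.88). Genes listed as markers of other cells were measured as well, and which cells their RNA came from was not tested. Summed endothelial markers, led by Stab2 and Lyve1, ran from 1308 to 9176 CPM in KO and from 273 to 5935 in WT, and macrophage markers, led by Mrc1 and Lyz2, from 430 to 958 and from 91.8 to 983. Erythroblast markers, led by alpha-globin genes, ran from 2235 to 95350 and from 2729 to 241300 CPM. None of the erythroblast, granulocyte, megakaryocyte, endothelial and hepatoblast markers was called by edgeR. At an unadjusted p under 0.05, 1 erythroblast gene was lower and 1 megakaryocyte gene higher, beside 10.2% and 8.6% of all genes. DESeq2 with the study's threshold called 1, Klf1, as lower, where it called 3.29% of all genes lower. Estimates were above 0 for 0 of 11 erythroblast (median -1.37), 8 of 8 megakaryocyte (1.09) and 11 of 11 hepatoblast markers (0.78). They were above 0 for 6 of 11 granulocyte and 8 of 12 endothelial markers, beside 53.1% of all genes. In bulk RNA, fewer cells of a type and less RNA per cell cannot be told apart. Marco, a scavenger receptor of macrophages, was the only macrophage marker called by edgeR, as lower, where 2.67% of all genes were. It had 0 counts in every KO library and 3.41 to 14.3 CPM in WT libraries. Clec4f was also at 0 in every KO library, and in WT its median was 0 and its highest value 3.85 CPM. Of the 16 macrophage markers tested 4 had estimates above 0, Mrc1 and Lyz2 among them, and the median log2 fold change was -0.77.

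To compare members with each other, the deposited TPM values, which are divided by transcript length, were added up per gene. Nfkbia, which encodes IκBα, the classical inhibitor that NF-κB induces against itself, had the highest level with 248 ± 87.8 TPM (SD, n = 10). Nfkb1, the gene of p105 and its product p50, followed with 68.5 ± 30.1 TPM, then Nfkbib (IκBβ) with 33.2 ± 7.78 and Rela (p65, the main activating subunit) with 31.8 ± 12.5. A lower tier held Nfkbiz (the nuclear protein IκBζ) with 9.90 ± 6.32 TPM, Nfkbie (IκBε) with 8.82 ± 4.82 and Nfkb2 (p100 and p52) with 8.09 ± 5.07. Relb, the partner of p52 in the non-canonical arm, had 4.999 ± 3.44 TPM. Tnfaip3, which encodes the ubiquitin-editing enzyme A20, and Rel, which encodes c-Rel, were the lowest with 1.63 ± 1.13 and 1.41 ± 1.03 TPM. The LT-HSC libraries thus held 1 dominant inhibitor RNA and little RNA of c-Rel, RelB or A20.

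Not every step in that order exceeded the spread between libraries. Over the 9 neighbouring pairs, log2(TPM + 1) was compared within libraries by a two-sided exact sign-flip permutation test with Benjamini-Hochberg adjustment. Nfkbia exceeded Nfkb1 by 1.90 on this scale in 10 of 10 libraries and Rela exceeded Nfkbiz by 1.70 in 10 of 10 (adjusted p = 0.00879 for each, exact permutation test). Smaller steps past the threshold of 0.05 were Nfkb1 over Nfkbib (0.91, 8 of 10 libraries, adjusted p = 0.0234, exact permutation test), Nfkb2 over Relb (0.62, 8 of 10, adjusted p = 0.0264) and Relb over Tnfaip3 (1.03, 8 of 10, adjusted p = 0.0492). No difference beyond the spread was found between Nfkbib and Rela, Nfkbiz and Nfkbie, Nfkbie and Nfkb2, or Tnfaip3 and Rel, with adjusted p of 0.585, 0.654, 0.585 and 0.624 by the same exact permutation test. The step from Nfkb2 to Relb missed the threshold without KO replicate 15405, 15406 or 15411 or WT replicate 15418 (adjusted p = 0.0527 in each, exact permutation test). The step from Relb to Tnfaip3 passed only without KO replicate 15415 or WT replicate 15420 (adjusted p = 0.0352 in each, exact permutation test) and missed it in the other 8 such tests.

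**Figure D1:**
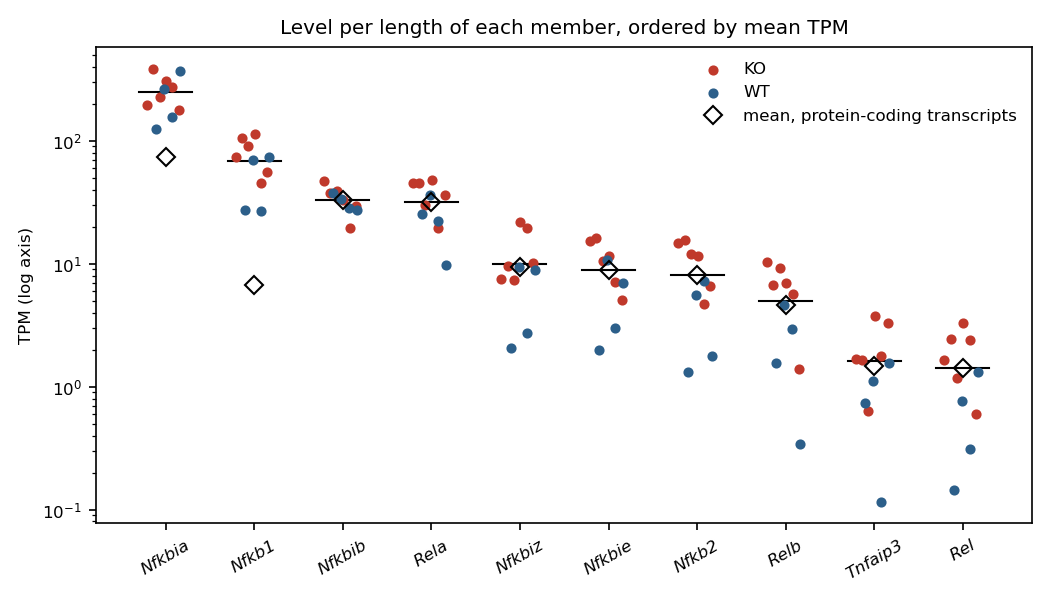
TPM (log axis) of each member in the 6 KO (red) and 4 WT (blue) libraries, ordered by the mean over all 10 libraries (line); the open diamond is the mean over protein-coding transcripts alone. Nfkbia leads with a mean of 248 TPM and Rel is last with 1.41, and the diamond sits far below the line for Nfkbia and Nfkb1.

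The transcripts to which reads were assigned mattered for the leading subunit and the leading inhibitor. Shares are the authors' kallisto estimates from single-end reads, and how well these separate overlapping transcripts was not tested. They can vary widely, since across KO libraries Relb-201 took 3.01 to 75.9% of Relb and Relb-203 took 0 to 73.2%. By these estimates only 9.87% of the mean TPM of Nfkb1 was assigned to its protein-coding transcripts. Most lay on Nfkb1-207, annotated as subject to nonsense-mediated decay (chr3:135584745-135603796, 9 exons, 1924 bases), and on Nfkb1-202, annotated as a retained intron (chr3:135584882-135608483, 13 exons, 2520 bases), which took 44.9% and 36.5% of it. Both cover only the 3′ portion of the gene (chr3:135584655-135691547, minus strand, GRCm38), and the longest coding transcript, Nfkb1-201, was listed at 0 TPM in every library. For Nfkbia, 29.6% lay on the coding transcript Nfkbia-201 and 70.4% on Nfkbia-202, a retained-intron model of 701 bases and 4 exons (chr12:55490407-55491810) inside the gene (chr12:55489410-55492647). These shares overlapped between groups, with coding shares of Nfkb1 from 3.09 to 15.4% across KO libraries that enclosed all WT shares, and those of Nfkbia from 24.6 to 34.7% beside 24.5 to 30.7% across WT. In the other members at least 91.1% of the mean TPM was on coding transcripts. Over coding transcripts alone, an added comparison chosen after these shares were seen, Nfkb1 had 6.76 ± 3.78 TPM (SD, n = 10) below the means of Rela (31.8) and Nfkb2 (8.09), and lay below Nfkbib in 10 of 10 libraries (log2 difference -2.25, adjusted p = 0.0044, exact permutation test), whereas Nfkbia stayed first with 73.4 ± 23.9 TPM.

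Between KO and WT, none of the 10 members passed the test. With edgeR's quasi-likelihood test and an adjusted p below 0.1, 0 of 10 were called, where 3.99% of all genes were called, 1.32% as higher and 2.67% as lower in KO. Without adjustment, 0 members had an edgeR p under 0.05, beside 8.6% of all genes higher and 10.2% lower. DESeq2 with the study's fold-change threshold also called 0 members, where it called 3.5% of all genes higher and 3.29% lower, and none had an unadjusted p under 0.05. Without that threshold DESeq2 called 0 members, where it called 5.97% of all genes higher and 6.85% lower, and 1 member, Rel, had an unadjusted p under 0.05, a share close to the 10.2% of all genes higher and 10.6% lower. No member had every KO library above or below every WT library, which was so for 2.88% and 3.48% of all genes. The estimates were not centred on no change, since 8 of 10 were above 0, where 53.1% of all genes tested were. Their median was 0.66 on the log2 scale, beside 0.062 for all genes tested. Among the other listed genes the share above 0 ran from 0% (erythroblast markers) to 100% (megakaryocyte and hepatoblast markers), with 81.2% of LT-HSC markers. The members were measured in the same libraries, so their directions are not independent. The 95% interval of each of the 10 fold changes included no change, and those of Rel, Relb and Tnfaip3 reached up to 5.62-fold, 5.77-fold and 5.70-fold. These p-values measure the spread between libraries, each from an embryo.

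Among the subunits, all protein-coding genes placed on GRCm38, Nfkb1 was the most abundant over all transcripts, though not in the TPM assigned to coding ones. It ran from 111 to 210 CPM in KO with a median of 160, and had 69.0, 152, 96.3 and 197 CPM in WT replicates 15416, 15417, 15418 and 15420. The groups overlapped, with WT replicates 15416 and 15418 below every KO library and 15420 near the highest. Its log2 fold change was 0.33 (SE 0.28, 95% interval -0.29 to 0.95), and it turned to -0.087 when library differences that follow transcript length were removed. Rela (chr19:5637483-5648130, plus strand) ran from 58.8 to 111 CPM in KO with a median of 98.6, and had 81.5, 101, 98.2 and 32.1 CPM in the same WT order. WT replicate 15420 stood below all other libraries, and the log2 fold change of 0.21 (SE 0.31, interval -0.45 to 0.88) became -0.0425 without that library and -0.15 with the correction for length. For the genes of p50 and p65, the usual canonical dimer, summed over all transcripts, no difference beyond the spread was found, with intervals that reach from a fall to 0.819-fold or 0.733-fold to rises of 1.93-fold and 1.84-fold.

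The 3 less abundant subunits had larger and less precise estimates. Nfkb2 (chr19:46304320-46312385, plus strand) ran from 15.8 to 37.2 CPM in KO with a median of 30.4, and had 4.78, 17.4, 36.1 and 6.65 CPM in WT replicates 15416, 15417, 15418 and 15420. WT replicate 15418 lay among the highest KO libraries while 15416 and 15420 lay below every KO library. Its log2 fold change was 0.83 (SE 0.50, interval -0.26 to 1.92), or 1.62 without WT replicate 15418 and 0.52 without WT replicate 15416. Relb (chr7:19606217-19629438, minus strand) ran from 3.75 to 17.7 CPM in KO with a median of 13.0, and had 3.34, 9.23, 10.5 and 0.566 CPM in WT. In 5 of 6 KO libraries Relb exceeded the highest WT library, and KO replicate 15415 was the exception. Its log2 fold change of 1.10 (SE 0.66, interval -0.33 to 2.53) did not pass the test, and its counts in WT replicate 15420 numbered 4. Rel (chr11:23736847-23770970, minus strand) ran from 5.19 to 20.8 CPM in KO with a median of 12.5, and had 1.29, 5.86, 3.85 and 12.2 CPM in WT. Here 3 KO libraries were above the highest WT library, and the log2 fold change of 1.19 (SE 0.60, interval -0.12 to 2.49; 1.84 without WT replicate 15420) had the smallest adjusted p of any member, 0.311 by edgeR with Benjamini-Hochberg adjustment.

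**Figure D2:**
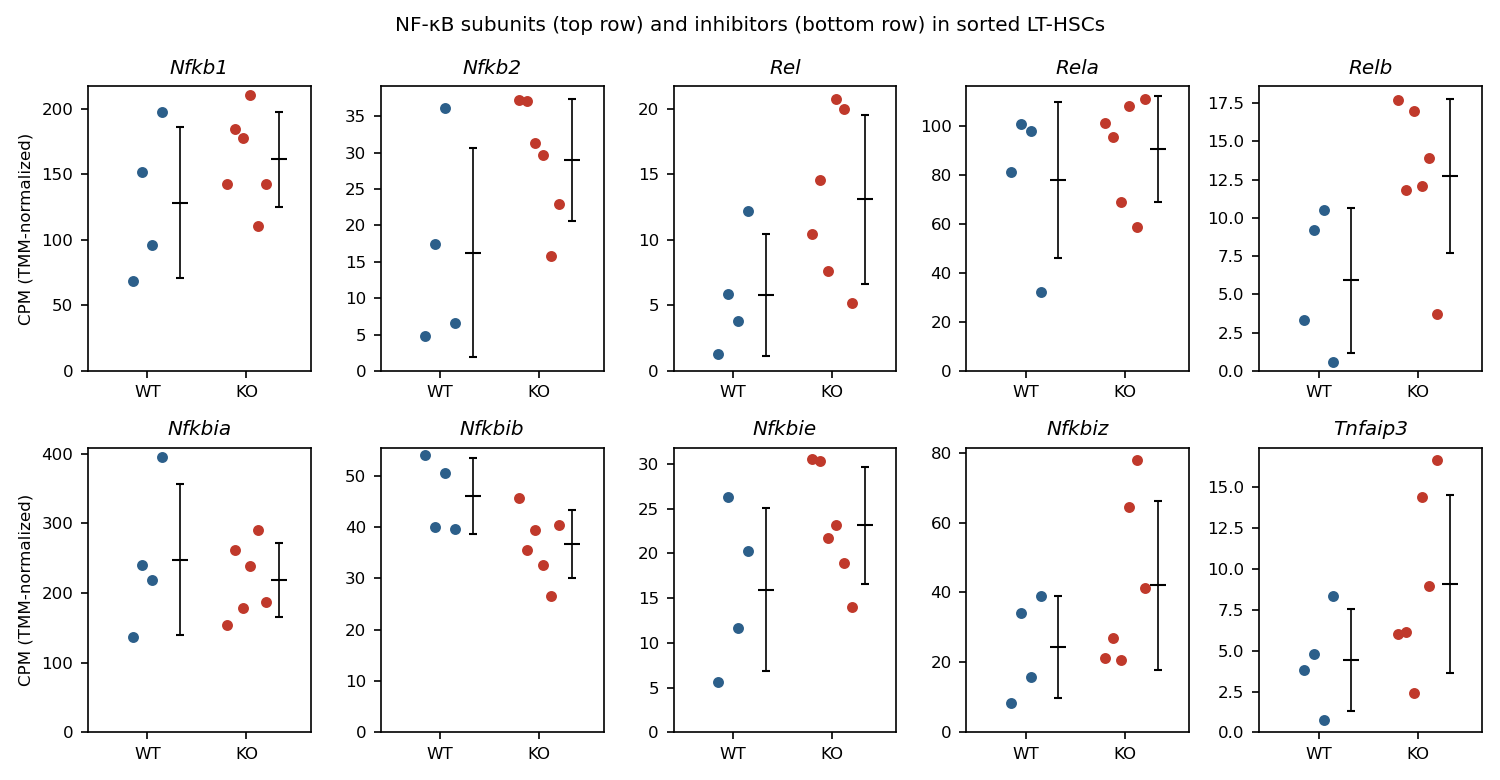
CPM (TMM-normalized, linear axes from 0) of each member in the 4 WT (blue) and 6 KO (red) libraries, with the mean and SD beside the points; the top row holds the subunits and the bottom row the inhibitors. The groups overlap in every panel, and Relb has 5 of 6 KO libraries above the highest WT library.

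Of the inhibitors, the abundant pair had negative estimates. Nfkbia ran from 154 to 291 CPM in KO with a median of 213, and had 137, 241, 218 and 396 CPM in WT replicates 15416, 15417, 15418 and 15420. All 6 KO libraries lay between the lowest and the highest WT library. The log2 fold change of -0.18 (SE 0.28, interval -0.78 to 0.42) became 0.14 without WT replicate 15420, and the mean TPM, which is not TMM-normalized, was higher in KO (261 ± 77.7, n = 6) than in WT (228 ± 110, n = 4). Nfkbib (chr7:28758251-28767512, minus strand) ran from 26.5 to 45.6 CPM in KO with a median of 37.5, and had 54.1, 39.9, 50.6 and 39.6 CPM in WT. In 4 of 6 KO libraries it was below the lowest WT library, and its log2 fold change was -0.33 (SE 0.21, interval -0.78 to 0.12). Nfkbib was also the steadiest member, with a coefficient of variation among WT libraries of 16.0%, where genes within 2-fold of its mean CPM had a median of 35.6%. Of its exonic bases 14.48% are shared with Ccer2 and 1.94% with Sirt2 on the other strand, and of those of Nfkb2 6.52% with Psd and 11.58% with AC114539.1, so that without strand their reads cannot be told apart there.

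The other inhibitors were lower and more variable. Nfkbie (chr17:45555703-45563169, plus strand) ran from 14.0 to 30.6 CPM in KO with a median of 22.4, and had 5.69, 26.3, 11.7 and 20.2 CPM in WT. WT replicates 15416 and 15418 lay below every KO library and 15417 above 4 of the 6, and the log2 fold change was 0.53 (SE 0.40, interval -0.34 to 1.40). Nfkbiz (chr16:55811375-55838899, minus strand) ran from 20.7 to 78.0 CPM in KO with a median of 34.2, and had 8.42, 34.2, 15.9 and 39.1 CPM in WT. KO replicates 15411 and 15412 were highest, WT replicates 15416 and 15418 lowest, and the log2 fold change was 0.79 (SE 0.50, interval -0.29 to 1.88), which fell to 0.19 with Xist as a covariate. Tnfaip3 (chr10:19000910-19015657, minus strand) ran from 2.38 to 16.6 CPM in KO with a median of 7.55, and had 3.79, 4.79, 0.739 and 8.35 CPM in WT. KO replicate 15409 lay below 3 of the WT libraries, and the log2 fold change was 1.05 (SE 0.67, interval -0.41 to 2.51), or 0.25 with Xist as a covariate and 1.55 without WT replicate 15420. Over the members the median was 0.37 with Xist, a measure of the sex of the embryo. Adjusted p over all 10 members lay between 0.311 and 0.780 (edgeR, Benjamini-Hochberg adjustment).

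**Figure D3:**
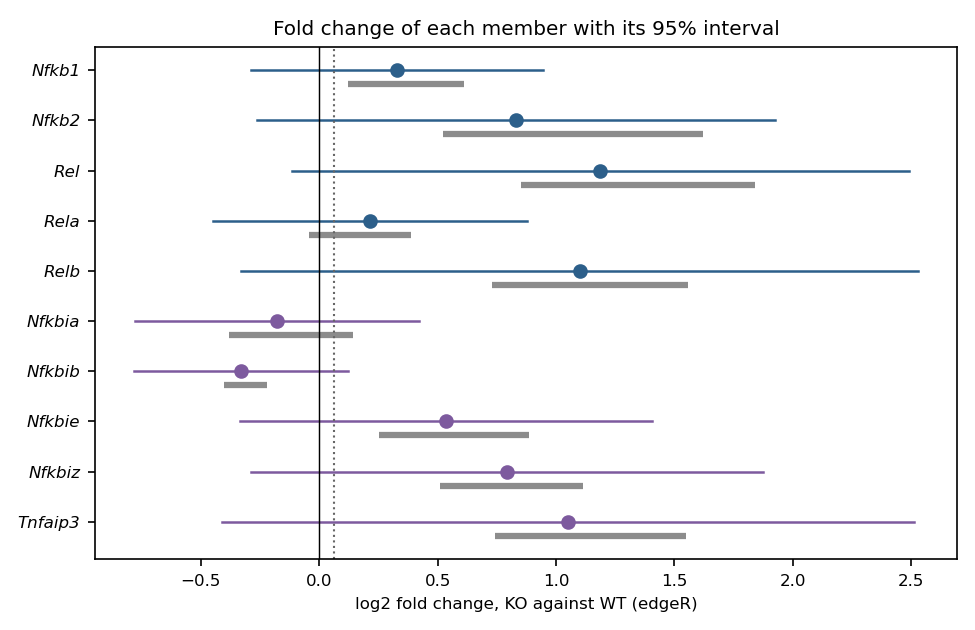
log2 fold change of KO against WT from edgeR (point) with its 95% interval (line) for subunits (blue) and inhibitors (purple); the grey bar spans the estimates with each library left out in turn, and the dotted line is the median of all genes, 0.062. Every interval crosses 0, and the grey bars of Rela and Nfkbia cross 0 as well.

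Relative to its mean, the spread was larger among WT than among KO libraries for 9 of 10 members, all but Nfkbib. The share of all genes with a larger spread in WT was not counted. Of genes within 2-fold of a member's mean CPM, those with a smaller WT coefficient of variation made up 59.7% (Tnfaip3) to 95.2% (Nfkb2). For Nfkbib they made up 8.34%. WT replicate 15416 had the lowest value of all 10 libraries for 6 members (Nfkb1, Nfkb2, Rel, Nfkbia, Nfkbie and Nfkbiz) and the highest for Nfkbib. Shares of all genes lowest or highest in a library were not counted, so such counts do not set the members apart. Against each member's mean log2 CPM, WT replicate 15416 was 2.58 lower for Rel, 2.04 lower for Nfkb2 and 1.79 lower for Nfkbiz, whereas Nfkbib was 0.45 higher. The same library had summed macrophage markers of 91.8 CPM where the other WT libraries had 783 to 983, and summed endothelial markers of 273 CPM where they had 4671 to 5935. Mrc1, which led the macrophage sum, ran from 3.11 to 489 CPM across WT libraries. Whether the 2 sums stand for separate cells was not tested, nor was the part of these cells in the members' levels. Without WT replicate 15416 the median log2 fold change of the members was 0.38, and without WT replicate 15417 it was 0.88. WT replicate 15420, the WT library with the fewest counts, was lowest for Rela and Relb and highest for Nfkbia. Among KO libraries, 15411 was above the member's mean for 9 of 10 members and 15409 for 4 of 10.

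**Figure D4:**
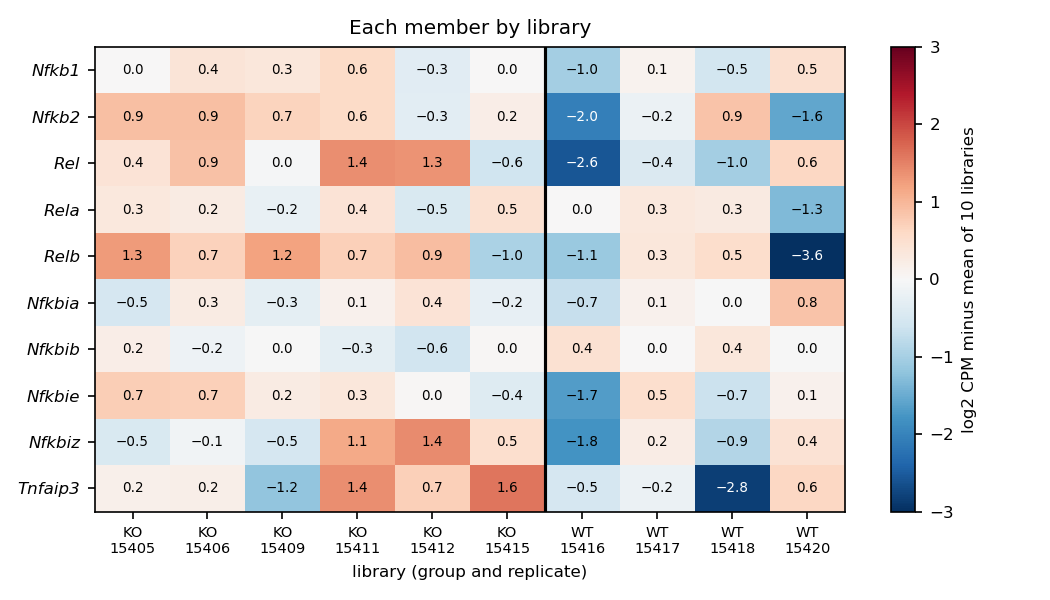
log2 CPM of each member in each library minus its mean over the 10 libraries, with KO to the left of the black line and WT to the right; colours are capped at 3 in either direction. WT replicate 15416 is low for most members, and the lowest cell is Relb in WT replicate 15420 at -3.6.

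Members also differed in how they varied together. Across the 10 libraries Pearson's r of log2 CPM was highest for Rel with Nfkbiz (0.822), Nfkb1 with Nfkbie (0.815, or 0.77 after group means were removed) and Rel with Nfkbie (0.81). Nfkbib ran opposite to several members, with r of -0.897 with Nfkbiz and -0.843 with Rel. Over all 45 pairs the median r was 0.23. These values describe libraries that share depth, cell makeup and the genotype contrast. Of 9495 genes with a mean of at least 10 CPM, those most like Nfkb1 were Tspan4 (r = 0.95), Flii (0.95) and Adnp2 (0.95). Those most like Nfkbia were Fbp1 (0.96), Rnf130 (0.95) and the pseudogene Rpl7-ps9 (0.94).

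Transcript length followed the genotypes in these libraries. In each library the deviation of log2 CPM from the mean over libraries was ranked against mean transcript length across genes, which are not independent replicates, and Spearman's rho lay between 0.0577 and 0.224 for KO and between -0.191 and -0.0970 for WT libraries. Most members are long, Rel with a mean transcript length of 7466 bases being longer than 99.2% of genes tested, while the pair with negative estimates is short, Nfkbia with 1140 and Nfkbib with 1292 bases being longer than 20.2% and 26.8%. With a loess offset on length the median of all genes moved by -0.23 and the split of calls from 221 higher and 446 lower to 49 and 450. The members' median went from 0.66 to 0.25, that is from 0.60 to 0.42 above the median of all genes, and 6 of 10 remained above 0. The estimate of every member became lower, also in the short pair, where Nfkbia went from -0.18 to -0.26 and Nfkbib from -0.33 to -0.41. The trend with length and the genotype cannot be told apart here.

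The rest of the pathway was read from 4 lists of genes around the members, 101 of them tested. By edgeR 4 of these rose and 1 fell, where 1.32% of all genes rose and 2.67% fell. Among 10 other family and cofactor genes none was called by edgeR. At p under 0.05 without adjustment 1 gene was higher and 1 lower, beside 8.6% and 10.2% of all genes. DESeq2 with the study's fold-change threshold called 1 higher, Nfkbid, where it called 3.5% of all genes higher. Nfkbid, which encodes the nuclear inhibitor IκBNS, came closest with 28.7 ± 16.1 CPM in KO and 9.98 ± 3.33 in WT and a log2 fold change of 1.52 (SE 0.46, adjusted p = 0.113, edgeR). Commd1, a copper-handling protein that promotes turnover of RelA, had -0.56 (SE 0.20, adjusted p = 0.165, edgeR). Bcl3, another nuclear IκB protein, had 0.80 (SE 0.46, adjusted p = 0.371, edgeR). All 6 KO libraries of Bcl3 were above every WT library, as in 2.88% of all genes.

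Of 40 IKK and adaptor genes 2 rose and none fell, where 1.32% of all genes rose and 2.67% fell. Traf3, the adaptor that holds the non-canonical arm in check by promoting loss of the kinase NIK, ran from 20.8 to 33.2 CPM in KO with a median of 28.2 and from 1.98 to 13.1 CPM in WT. All 6 KO libraries were above every WT library, as in 2.88% of all genes, and its log2 fold change was 1.66 (SE 0.43, adjusted p = 0.0856, edgeR). Erc1, which encodes the IKK-binding protein ELKS, had 47.4 ± 10.7 CPM in KO and 25.9 ± 5.53 in WT, also without overlap, and a log2 fold change of 0.87 (SE 0.23, adjusted p = 0.0906, edgeR). The kinase subunits themselves, named here for their role, were not called, with log2 fold changes of -0.21 for Chuk, 0.35 for Ikbkb (-0.048 with the length offset) and -0.28 for Ikbkg. Ikbkb had all 6 KO libraries, at 66.7 to 94.7 CPM, above the WT libraries at 52.8 to 65.5, which was so for 2.88% of all genes.

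Receptors went both ways. Il18rap, the accessory chain of the interleukin-18 receptor, rose with a log2 fold change of 2.40 (SE 0.68, adjusted p = 0.0999, edgeR), from 0.758 to 6.37 CPM in WT to 4.66 to 28.6 CPM in KO. Il1rl1, the interleukin-33 receptor also known as ST2, fell by 2.44 on the log2 scale (SE 0.57, adjusted p = 0.0824, edgeR). Its 6 KO libraries, at 0.704 to 2.23 CPM, were all below the WT libraries at 2.69 to 12.5, as in 3.48% of all genes. Il18rap and Il1rl1 were 2 of 19 receptor genes tested, 1 higher and 1 lower, where 1.32% of all genes rose and 2.67% fell. Of 34 target genes 1 rose, Irf1, an interferon regulatory factor, where 1.32% of all genes rose. It had 38.7 to 142 CPM in KO and 20.9 to 29.7 CPM in WT. Its log2 fold change was 1.68 (SE 0.36, adjusted p = 0.0824, edgeR). All its KO libraries were above every WT library, which was so for 2.88% of all genes. Medians of the lists, over genes with counts in both groups, were 0.10 for other family genes, 0.023 for IKK and adaptors, 0.44 for receptors and 0.59 for targets. Each of these calls lies close to the threshold of 0.1, and all were lost at 0.05, with WT replicate 15416 or any KO replicate but 15409 left out, or with Xist as a covariate. They were not equally stable. Of 21 alternative fits, Il18rap lost its call in 14, Erc1 in 10, Traf3 in 8, and Irf1 and Il1rl1 in 7 each. The estimates moved less, Traf3 lying between 1.34 and 1.98 and Erc1 between 0.75 and 1.02 on the log2 scale with a library left out. With the length offset the calls of Traf3 (1.15, adjusted p = 0.16, edgeR), Erc1 (0.35, adjusted p = 0.503, edgeR) and Il18rap (1.96, adjusted p = 0.152, edgeR) were lost and the pathway lists held 1 higher and 3 lower. DESeq2 with the study's threshold called 8 higher and 1 lower over the 4 lists, where it called 3.5% of all genes higher and 3.29% lower.

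**Figure D5:**
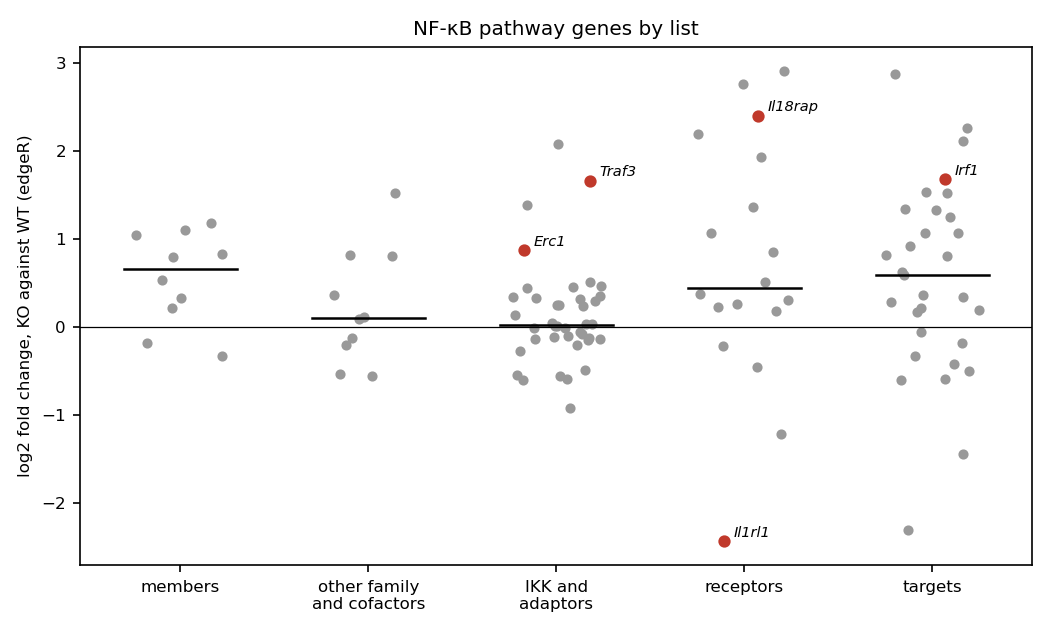
log2 fold change of KO against WT (edgeR) of the 10 members and of the genes of 4 pathway lists with counts in both groups; red points passed an adjusted p of 0.1, grey points did not, and lines are medians. Red points are Traf3, Erc1, Il18rap, Il1rl1 and Irf1, and none lies among the members.

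Immediate early and dissociation genes, which respond quickly to handling and signalling, moved in the same comparison. Of 28, 6 rose (Dusp2, Jun, Fosl2, Nr4a1, Socs3 and Fosb) and 1 fell (Hspa8), where 1.32% of all genes rose and 2.67% fell. These calls, like those of the LT-HSC markers and Marco, were lost in the same settings as the pathway calls, and the length offset also ended that of Fosb and those of Cd34, Mecom and Hlf. Fosl2, an AP-1 subunit, had 92.3 ± 56.8 CPM in KO and 13.5 ± 7.53 in WT (log2 fold change 2.78, SE 0.60, adjusted p = 0.0824, edgeR). Hspa8, a chaperone, went from 8598 ± 2477 CPM in WT to 4294 ± 1091 in KO (adjusted p = 0.0824, edgeR), and with it at the head the summed list spanned 5528 to 7821 CPM across KO and 8475 to 12990 across WT libraries. Members of the NF-κB family that are themselves rapidly induced, Nfkbia, Nfkbiz and Tnfaip3, were not called, and the part of handling in the members' levels was not tested.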

How the data were processed

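SmartSeq2 libraries of sorted LT-HSCs, 6 KO and 4 WT, were sequenced as single-end reads, and the authors quantified transcripts with kallisto 0.44.0 after bcl2fastq 2.20, as the submitters' processing notes name them. For each library the authors deposited estimated counts and TPM per transcript, and 1 table in which the authors summed estimated counts to gene symbols as whole-number counts, not normalized. TPM is scaled for length and library total. Transcripts were assigned here to symbols, types and GRCm38 positions with Gencode vM21. For 97.5% of its values, sums made here from the estimated counts differed by at most 1 count.

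Genes reaching 11 counts over all libraries were fitted with edgeR 4.0.16 in R 4.3.3 (TMM, robust quasi-likelihood test). A Benjamini-Hochberg adjusted p below 0.1 over all 16725 genes was called. SE and 95% intervals derive from the quasi-likelihood F statistic. The study's own test, DESeq2 (1.42.0) against a log2 fold change of 0.1, served as an alternative. Others were DESeq2 without that threshold, other normalizations, filters and dispersion estimation, a loess offset on transcript length (span 0.3), Xist as a covariate, transcript sums, an adjusted p below 0.05, and each library left out. Of the tests, only the main edgeR fit was checked on counts simulated with known changes. Levels of members were compared as log2(TPM + 1), over all 10 libraries. Depth was 5315435 to 30941726 counts per library.

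The members and lists were chosen with earlier results of these data known. Named besides members are Spi1, Tnfrsf11a, called genes of each list or otherwise the 3 with the smallest p, the 3 genes most like Nfkb1 and Nfkbia, and the highest markers. The kappaB consensus was searched in 250 bases upstream of starts.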

Additional observations from a re-analysis of the deposited data

How the results depend on the processing

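For the members, 0 of 10 were called in either direction under all 22 alternatives, and the lowest adjusted p of any member was 0.109, for Nfkb2. With the length offset the log2 fold changes of Nfkb1 (-0.087), Rela (-0.15), Tnfrsf11a (-0.17) and Ikbkb (-0.048) turned. With a library left out, Rela ranged from -0.0425 to 0.39 and Nfkbia from -0.38 to 0.14, both turning without WT replicate 15420, and Tnfrsf11a from -0.043 to 1.43, turning without WT replicate 15416 or 15417 (-0.0032). The cause was not tested.

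Over all genes, 221 higher and 446 lower became 0 and 0 at an adjusted p below 0.05 or with Xist as a covariate, 585 and 551 with DESeq2 and the study's threshold, 998 and 1145 without that threshold, and 49 and 450 with the length offset, and ranged from 0 to 405 and from 0 to 598 with a library left out. For the 4 pathway lists, 4 higher and 1 lower became 0 and 0 at 0.05 or with Xist, 8 and 1 or 10 and 5 with DESeq2, 5 and 2 with filterByExpr, and 1 and 3 with the length offset, and ranged from 0 to 7 and from 0 to 2 with a library left out.

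Of the 9 neighbouring pairs by TPM, 5 passed the threshold, which became 3 in libraries with both genes at 1 TPM or more, 3 in the order given on protein-coding transcripts, where 1 more passed in the opposite order, 4 with a pseudocount of 0.1, where Relb over Tnfaip3 had an adjusted p of 0.081 (exact permutation test), 0 in WT and 0 in KO libraries alone, where the smallest p allowed is 0.125 and 0.0312, and 3 to 5 with a library left out. Nfkb1 over Nfkbib turned on coding transcripts (-2.25), Nfkbib over Rela in KO libraries (-0.11) and Tnfaip3 over Rel at 1 TPM or more (-0.072). With a library left out Tnfaip3 over Rel ranged from -0.015 (without KO replicate 15415) to 0.19 and Nfkbiz over Nfkbie from -0.031 (without KO replicate 15412) to 0.22. Counts were lowest for Relb, with 4 in WT replicate 15420, the WT library of least depth.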

Other observations

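In each member and group the highest and the lowest library were compared with the nearest of the others by Dixon's ratio, and 0 of 20 groups held a library past the 95% critical value, where chance gives about 1 in 20.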
